A study of Mus musculus with 12 samples.

Results

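The genes described here carry inhibitory signalling by GABA and glycine in hippocampal cultures that received a miR-148a-3p mimic. They were taken as a named list of 27 genes, of 48709 genes counted in the series. The list was divided by role into 9 GABA-A receptor subunits, 2 GABA-B receptor subunits, 3 glycine receptor subunits, 4 organisers of the inhibitory synapse, 2 enzymes of GABA synthesis, 3 transporters, 2 enzymes of GABA breakdown and 2 chloride transporters. All 27 genes passed the filter on low counts and were tested together with the other genes, 18847 in all.

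RNA was sequenced from 12 libraries of mouse primary hippocampal cultures, 6 labelled control and 6 labelled mimic. The cells came from CD1 embryos of embryonic day 17 and the labels name no engineered allele. At day 10 in vitro the mimic group received a synthetic miR-148a-3p mimic and the control group received a negative control oligonucleotide. By the study's methods both oligonucleotides were given in lipid nanoparticles together with ApoE4. Both groups were harvested 48 h later, at day 12. The study describes such cultures as a mixture of neurons and glia, and the labels do not say whether the 6 replicates of a group were separate cultures, so the p-values measure the spread between these libraries, which may be technical.

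GABA is made from glutamate by the glutamate decarboxylases, is packed into vesicles, and after release opens GABA-A receptors, which are chloride channels of 5 subunits, or acts on GABA-B receptors, which couple to G proteins. Glycine receptors are related chloride channels, and gephyrin holds both kinds of channel at the synapse. Transporters of neurons and astrocytes end the signal, GABA transaminase and succinate semialdehyde dehydrogenase degrade GABA, and the balance between the chloride importer NKCC1 and the exporter KCC2 sets whether the channels inhibit or excite. Immature hippocampal neurons rely more on the importer and on GABA-A subunits such as alpha2, alpha3 and alpha5.

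The oligonucleotides are shown because the seed, bases 2 to 8 of the guide strand and here in capitals, is the part by which a microRNA finds its messages. The mimic sequence in the study's reagent list is identical to mature mmu-miR-148a-3p in RefSeq (GRCm38.p6). The second sequence is the negative control listed for mimics, which is taken here to be the one used.
miR-148a-3p mimic: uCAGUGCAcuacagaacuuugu
negative control: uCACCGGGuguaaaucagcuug

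The longest annotated 3′ UTR of each gene was searched on the sense strand for the 7-base matches TGCACTG and GCACTGA, which overlap in the 8-base match TGCACTGA. Of 15069 tested genes with an annotated 3′ UTR, 21.9% held at least 1 of these matches. Among the 27 genes only Gabrb1, which encodes the beta1 subunit of GABA-A receptors, held any, which is 3.7% of them, although their median 3′ UTR of 2212 bases was longer than the median of 1173 bases over the tested genes. Both Gabrb1 matches, in capitals below, were TGCACTG in a 3′ UTR of 12228 bases on the plus strand (mm10).
Gabrb1 at chr5:72137171-72137198: ggaccttgctatctaccTGCACTGtgct
Gabrb1 at chr5:72137870-72137897: gtgcctgggcagttatcTGCACTGccaa
The 7-base matches to the negative control seed were present in Gabrb2, Nlgn2, Shisa7 and Slc12a5, which is 14.8% of the 27 genes against 4.42% of the tested genes. None of the 6 genes that were higher in mimic held a match to either seed in the 3′ UTR searched.

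The libraries held 20018234 to 37149112 counts, and control replicates 1 and 2 were the shallowest. In the genes described here control replicate 1 stood apart: it was the highest control library for 9 of the 27 genes and the lowest for 10, and its median distance from the control mean was 17.0%, against 1.59% to 7.19% in the other control libraries. By that distance control replicate 2, at 6.59%, was no farther from the mean than replicate 4, but it tended to lie on the side of replicate 1: these 2 libraries were the 2 lowest controls for 14 genes and the 2 highest for 2. The median coefficient of variation of the 27 genes was 10.3% in control, 3.84% in mimic, and 4.64% in control without replicates 1 and 2. Where leaving out these libraries changed a call or a direction, both values are given.

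Marker genes of neurons and of glia were both well above 0. The summed level of 8 neuron markers was 6520 to 7340 CPM (counts scaled to a common library size) in control and 6400 to 6800 in mimic, a log2 difference of -0.079 (exact permutation test, two-sided, adjusted p = 0.0577 over 8 marker lists). It passed the threshold without control replicate 1 (-0.097, exact permutation, adjusted p = 0.026), without replicate 2 (-0.098, adjusted p = 0.0231) and without both (-0.126, adjusted p = 0.0127). With equal weight for each marker, as the mean of log2(CPM + 0.5), it was -0.05 (exact permutation, adjusted p = 0.143), and of the 8 markers 2 fell (Tubb3 and Stmn2) and 6 were not called. The summed level of 10 astrocyte markers was 4880 to 5370 CPM in control and 5740 to 6200 in mimic, 0.18 higher on the log2 scale (exact permutation p = 0.00216, the smallest possible, adjusted p = 0.00866). Of the 10 markers 8 rose, while Gfap fell from a mean of 1360 to 731 CPM. Slc1a3 alone rose from 913 to 1820 CPM, by more than the whole sum, whose means were 5190 and 5900 CPM. The sum of 8 markers of the oligodendrocyte lineage was 392 to 680 CPM in control and 768 to 963 in mimic, 0.92 higher (exact permutation, adjusted p = 0.00866). Olig1 made up 370 of the mean of 453 CPM in control and 720 of 842 in mimic, and with equal weight the difference was 0.51 (exact permutation, adjusted p = 0.00433). Of the 8 markers 6 rose and 2 were not called. The sum of 16 interneuron markers was 707 to 845 CPM in control and 668 to 724 in mimic, 0.11 lower (exact permutation, adjusted p = 0.0208). Calb2 alone averaged 421 CPM in control and 354 in mimic, and without it the other 15 markers summed to 321 to 334 CPM in control and 326 to 343 in mimic. With equal weight the 16 markers were 0.085 lower (exact permutation, adjusted p = 0.00433). Of the 16 markers 4 fell (Calb2, Pvalb, Dlx2 and Npas1), 2 rose (Sox6 and Nxph1) and 10 were not called. That of 7 glutamatergic markers was 1230 to 1340 against 1250 to 1320 CPM, a log2 difference of 0.024 (exact permutation, adjusted p = 0.386), although 4 of the 7 fell and none rose. With equal weight these 7 markers were 0.16 lower (exact permutation, adjusted p = 0.00433), and without control replicate 1 their sum was 0.042 higher (exact permutation, adjusted p = 0.0495), so the direction depends on the summary. Sums of 10 meningeal and mural markers (203 to 271 against 102 to 230 CPM, 0.72 lower) and of 6 endothelial markers (46.6 to 68.7 against 28.3 to 50.8 CPM, 0.66 lower) were lower in mimic (exact permutation, adjusted p = 0.0173 for each), and microglial markers summed to 10.6 to 12.5 against 9.0 to 15.4 CPM (exact permutation, adjusted p = 0.556), with 2 of 7 lower (C1qa and C1qb). Of the 9 meningeal and mural markers tested, 2 fell, the contractile genes Acta2 (27 to 3.75 CPM) and Tagln (49.2 to 14.7 CPM), and 7 were not called; without these 2 the sums overlapped, at 127 to 203 CPM in control and 80.7 to 211 in mimic. Kdr made up 58.6 of the 60.6 CPM of the endothelial sum in control, and of 5 endothelial markers tested it and Flt1 fell; with equal weight the endothelial difference was -0.31 and the meningeal and mural difference -0.58 (exact permutation, adjusted p = 0.00577 for each). Genes left out of these sums were chosen after their values were seen. Cldn5 of the endothelial list and Slc22a6 of the meningeal list were near 0, with means of 0.0833 and 1.67 counts, and were not tested. In bulk RNA, fewer cells of a type and less RNA per cell cannot be told apart.

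Ordered by control level per kilobase of exon, the alpha5 subunit Gabra5 came first, at 88.9 ± 4.11 CPM per kb (SD, n = 6), followed by the GABA-B subunit Gabbr1 at 76.4 ± 3.05 and the alpha2 subunit Gabra2 at 72.0 ± 10.7. The control libraries of Gabra5 and Gabbr1 did not overlap, whereas those of Gabbr1 and Gabra2 did, and Gabra2 lay below Gabbr1 in 3 of 6 libraries. The next places were taken by Gabbr2 (57.4), the synapse organiser Nlgn2 (55.7), the astrocytic transporter Slc6a11 (52.4) and the chloride exporter Slc12a5 (44.0), and each overlapped its neighbour in this order. At the low end, Gabrg1 stood at 0.866 ± 0.168 CPM per kb, the transporter Slc6a13 at 0.152 ± 0.0472 and the glycine receptor subunit Glra3 at 0.0538 ± 0.0256, and these 3 did not overlap. Glra3 and Slc6a13 averaged 14.4 and 22.1 counts per library, so their levels are imprecise.

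The order depends in part on the length used. Per kilobase of the longest coding transcript, Gabbr1 was first at 113 CPM per kb and Gabra5 was next at 99.0, and Gad1 moved from place 13 to place 8, since its value was 2.28 times as high. In mimic the order was nearly as in control, apart from Slc6a11, which stood at 66.9 CPM per kb and moved from place 6 to place 4, and exchanges between neighbours.

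**Figure D1:**
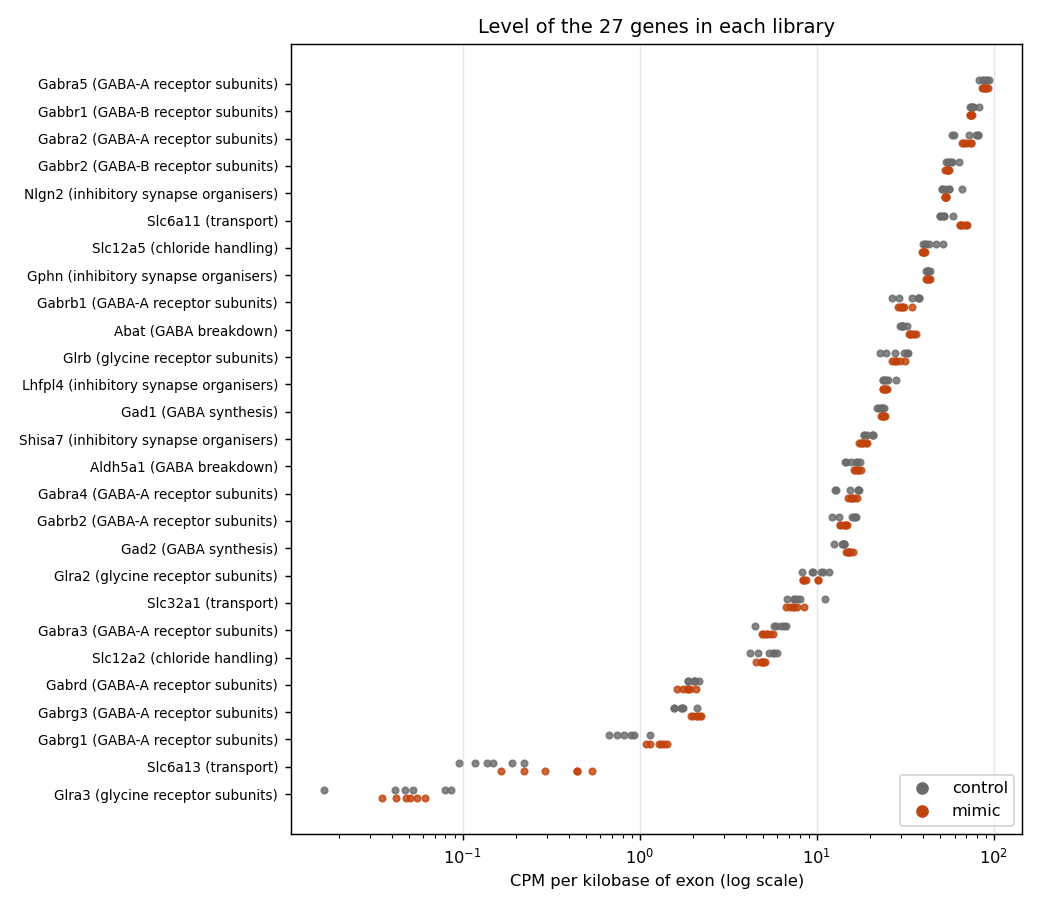
Level of each of the 27 genes in 6 control (grey) and 6 mimic (red) libraries, as CPM per kilobase of exon on a log axis, ordered by the control mean, with 1 point per library. Levels run from 0.0538 for Glra3 to 88.9 for Gabra5 in control, and the mimic points lie wholly to the right of the control points for Slc6a11, Abat and Gad2.

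The comparison of mimic with control asked how the inhibitory system of these cultures stood 48 h after the mimic was given. The genes that rose came from GABA uptake, breakdown and synthesis and from the gamma receptor subunits: Slc6a11, Slc6a13, Abat, Gad2, Gabrg1 and Gabrg3. By edgeR's quasi-likelihood test with Benjamini-Hochberg adjustment over all tested genes (adjusted p under 0.05), 6 of the 27 genes were higher in mimic, or 22.2%, against 11.5% of the tested genes, and none was lower, against 10.7%. At an unadjusted p under 0.05, 3 genes were lower (Gabra3, Shisa7 and Slc12a5), and DESeq2 also called 6 higher and 0 lower. The median log2 fold change of the 27 genes was -0.043 (-0.012 over the tested genes), and the median absolute change was 0.11 (0.12 over the tested genes). The groups did not overlap for 3 of the 27 genes, 11.1%, against 13.3% of the tested genes.

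The 6 higher calls were made in each of the alternative analyses, including without control replicates 1 and 2. The share of all tested genes called higher rose meanwhile from 11.5% to 14.4% without control replicate 1 and to 16.1% without both, so the 22.2% of the list stood closer to it there. The count of lower genes was not as stable: it was 4 without control replicate 1 (Gabra3, Gabrb2, Glra2 and Slc12a2; 13.1% of the tested genes were lower in that fit) and 6 without control replicates 1 and 2 (also Gabra2 and Gabrb1; 15.2% of the tested genes were lower), a choice made after seeing the data. Without control replicate 4 Shisa7 and Slc12a5 were called lower, without replicate 5 Slc12a5, and without replicate 6 Shisa7.

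**Figure D2:**
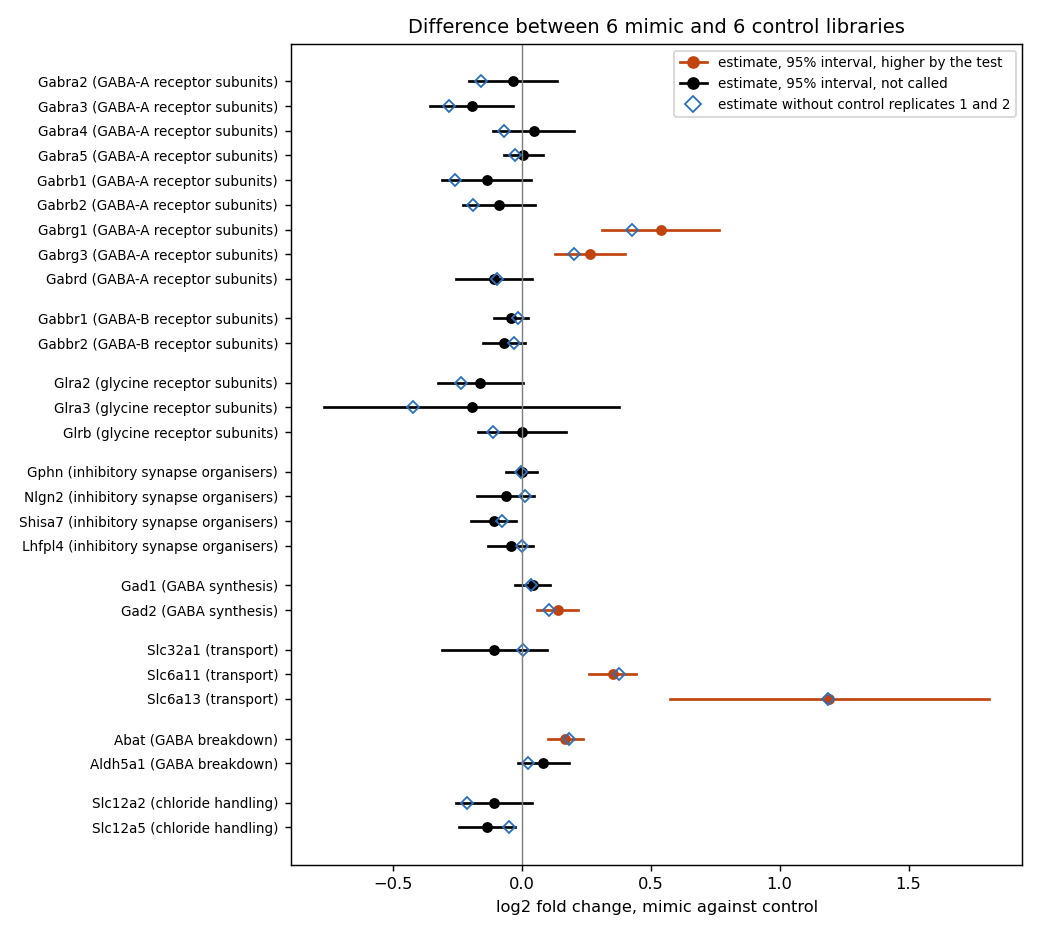
Log2 fold change of mimic against control for the 27 genes by role, as the edgeR estimate with its 95% interval (red where called higher, black where not called), and as the estimate without control replicates 1 and 2 (blue diamonds). The 6 called genes lie to the right of 0 with and without those libraries, and the diamonds of Gabra2, Gabra3, Gabrb1, Gabrb2, Glra2 and Slc12a2 lie to the left of the 12-library estimates.

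Among the GABA-A receptor subunits, 2 of 9 rose and 7 were not called. Gabrg1 encodes gamma1, a subunit that neurons of restricted regions and also glia use. Its CPM was 5.30, 6.70 and 9.05 (lowest, median and highest) in control and 8.51, 10.3 and 11.2 in mimic. The mimic libraries were all above the control mean, but control replicate 5, at 9.05, lay above mimic replicates 4 and 5. The estimate was a log2 fold change of 0.54 (SE 0.107), or 1.45-fold, with an adjusted p of 0.0013 by edgeR's quasi-likelihood test. The astrocyte and oligodendrocyte lineage marker sums were also higher in mimic, and their part in this increase was not tested.

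Gabrg3 encodes gamma3, a rarer relative of the gamma2 subunit found at most synapses. It was counted at 18.7, 20.7 and 25.1 CPM in control and at 23.2, 25.4 and 26.6 in mimic. Only control replicate 5, at 25.1, reached into the range of the mimic libraries, and the other control libraries were at 18.7 to 21.0. By the test the log2 fold change was 0.27 (SE 0.0643; edgeR quasi-likelihood, adjusted p = 0.00576).

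The alpha subunits, which shape the response to GABA and to benzodiazepines, were not called. Gabra2 was at 443, 577 and 625 CPM in control and 507, 531 and 571 in mimic, with control replicates 1 and 2 at 443 and 457 below all mimic libraries and the other control libraries at 551 to 625. Its log2 fold change was -0.033 with a 95% interval of -0.20 to 0.14, and without these libraries it was -0.16 (edgeR quasi-likelihood, adjusted p = 0.00674). Gabra3, encoding the early-expressed alpha3, was at 17.6, 23.9 and 26.3 CPM in control and 19.2, 20.3 and 22.1 in mimic. Control replicate 1 was the lowest of all 12 libraries while the other 5 control libraries, at 22.4 to 26.3, lay above all mimic libraries. The log2 fold change was -0.19 (SE 0.0758, edgeR adjusted p = 0.0769), and it was -0.26 (adjusted p = 0.000618) without control replicate 1.

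Gabra4, encoding the mostly extrasynaptic alpha4, had a log2 fold change of 0.046 (95% interval -0.11 to 0.20), and of -0.071 without control replicates 1 and 2. Gabra5, encoding the hippocampal alpha5 of tonic inhibition, had 264 ± 12.2 CPM in control and 266 ± 7.99 in mimic (SD, n = 6 each). Its log2 fold change of 0.006 had an interval of -0.070 to 0.083, and was -0.026 without control replicates 1 and 2. Gabrd, whose delta subunit also serves tonic inhibition, was at 5.76 ± 0.306 and 5.33 ± 0.433 CPM, with an interval of -0.25 to 0.038.

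Of the beta subunits, Gabrb1 is the gene with the 2 seed matches shown above. It was at 370, 496 and 525 CPM in control and at 399, 421 and 475 in mimic. Control replicates 1 and 2, at 370 and 401, were among the lowest libraries, while replicates 4, 5 and 6, at 517 to 525, exceeded all mimic libraries. Its log2 fold change was -0.14 (SE 0.0805; edgeR quasi-likelihood, adjusted p = 0.268), and -0.26 (adjusted p = 0.000282) without control replicates 1 and 2. Gabrb2, encoding a beta subunit of the main synaptic receptor, was at 77.6, 102 and 106 CPM in control and 85.8, 91.1 and 95 in mimic. Here too control replicates 1 and 2 were the lowest control libraries, at 77.6 and 85.3, and the other 4 lay above all mimic libraries. The log2 fold change was -0.088 (edgeR adjusted p = 0.397), -0.14 (adjusted p = 0.031) without control replicate 1 and -0.19 (adjusted p = 5.81e-05) without both.

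Several of these subunit genes are neighbours in the genome. Gabrg1 (chr5:70751047-70842617, minus strand), Gabra2 (chr5:70957597-71095849, minus), Gabra4 (chr5:71569749-71658308, minus) and Gabrb1 (chr5:71658113-72149037, plus) form 1 cluster on mm10. Within it Gabrg1 rose, and the other 3 were not called. The exons of Gabra4 and Gabrb1 overlap by 46 bases on opposite strands, and a kit that does not mark strand cannot assign reads there. Gabrg3 (chr7:56716465-57387188, minus) and Gabra5 (chr7:57407672-57510059, minus) also lie side by side, with Gabrg3 higher and Gabra5 not called.

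**Figure D3:**
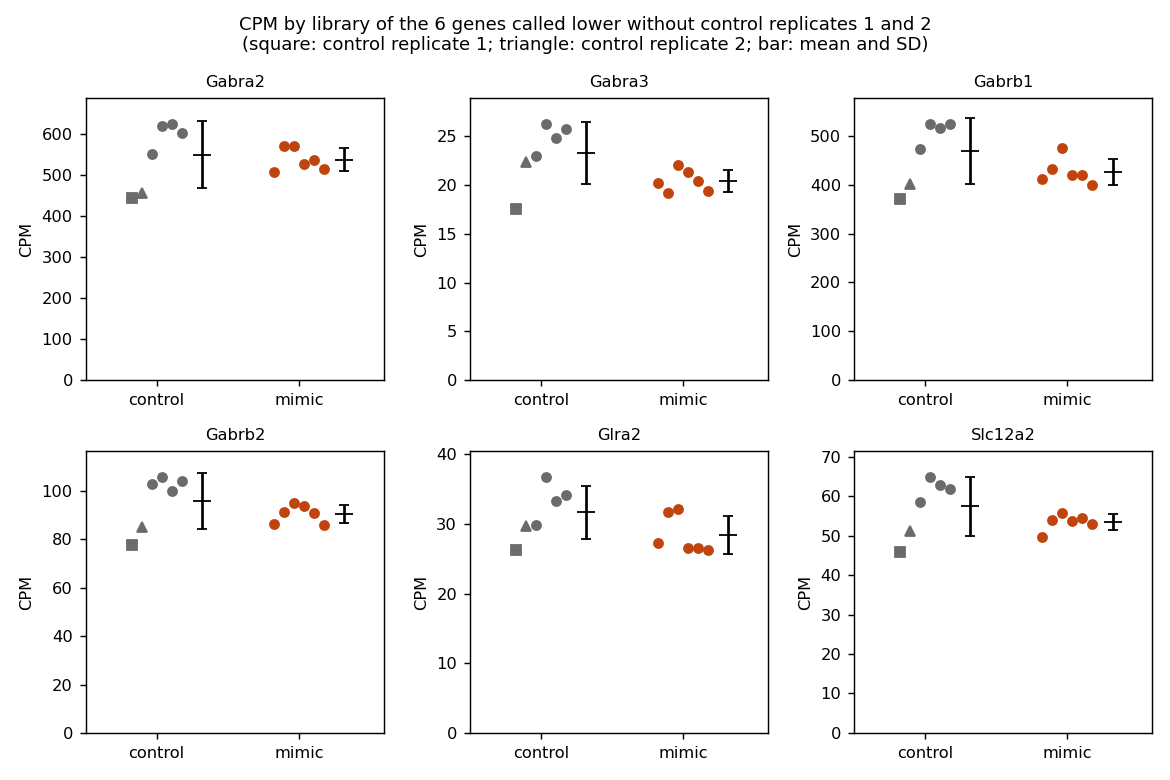
CPM in each of 6 control and 6 mimic libraries for the 6 genes that were called lower when control replicates 1 (square) and 2 (triangle) were left out, with the mean and SD of all 6 libraries per group. The square is the lowest control point in all 6 panels, and for Gabra3, Gabrb2 and Slc12a2 the 4 round control points lie above every mimic point.

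The GABA-B receptor needs both of its subunits, Gabbr1 to bind GABA and Gabbr2 to reach the surface and signal. Gabbr1 was at 593 ± 23.7 CPM in control and 576 ± 6.17 in mimic (SD, n = 6 each), and Gabbr2 at 383 ± 23.6 and 365 ± 7.41. The log2 fold changes were -0.043 (95% interval -0.11 to 0.024) and -0.070 (-0.15 to 0.012), and neither was called. Without control replicates 1 and 2 they were -0.016 and -0.029. The count ratio of Gabbr1 to Gabbr2 was 1.55 ± 0.0447 in control and 1.58 ± 0.0322 in mimic (exact permutation test, two-sided, p = 0.245, adjusted p = 0.326 over the 4 ratios tested).

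None of the 3 glycine receptor subunits was called, at an unadjusted p under 0.05 or by DESeq2 either. Glra2, the alpha2 subunit of developing neurons, was at 26.2, 31.6 and 36.8 CPM in control and 26.2, 26.9 and 32.1 in mimic. The ranges overlapped widely, with a log2 fold change of -0.16 (95% interval -0.32 to 0.003; edgeR adjusted p = 0.161), which became -0.21 (adjusted p = 0.0356) without control replicate 1. Glrb, the beta subunit that binds gephyrin, was at 132 ± 19.2 and 133 ± 8.74 CPM, a log2 fold change of 0.002 (-0.17 to 0.17), and of -0.11 without control replicates 1 and 2. Glra3, the alpha3 subunit, was at 0.151, 0.459 and 0.787 CPM in control and 0.323, 0.451 and 0.565 in mimic, with 3 to 24 counts per control library, and the 95% interval of its log2 fold change was wide, from -0.77 to 0.38.

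Of the 4 organisers of inhibitory synapses none was called. Gphn, the gephyrin scaffold, had 159 ± 2.61 CPM in control and 159 ± 3.21 in mimic, with a 95% interval of the log2 fold change of -0.062 to 0.060. Nlgn2, an adhesion protein of inhibitory synapses, was at 322 ± 33.1 and 308 ± 3.07 CPM; control replicate 1, at 384, was above the other 11 libraries. Lhfpl4, which brings GABA-A receptors to the synapse with Nlgn2, was at 145 ± 9.91 and 141 ± 2.92 CPM. Without control replicates 1 and 2 the log2 fold changes were 0.012 for Nlgn2 and -0.001 for Lhfpl4. Shisa7, an auxiliary protein of GABA-A receptors, was at 122, 132 and 139 CPM in control and 115, 121 and 128 in mimic. Every mimic library lay below the control mean, and the log2 fold change was -0.11 (SE 0.0416; edgeR quasi-likelihood, adjusted p = 0.0725).

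The 2 glutamate decarboxylases make GABA, Gad1 (GAD67) mostly for the cell body and basal supply and Gad2 (GAD65) mostly at terminals. Gad2 was at 73.6, 83.0 and 83.9 CPM in control and 86.1, 89.4 and 94.3 in mimic. All mimic libraries lay above all control libraries, and control replicate 2 was the lowest, with the other controls at 80.9 to 83.9. The log2 fold change was 0.14 (SE 0.0379), or 10.1% higher, with an adjusted p of 0.0129 by edgeR's quasi-likelihood test. Gad1 was at 166, 178 and 183 CPM in control and 176, 181 and 186 in mimic, so the groups overlapped. Its log2 fold change of 0.043 had a 95% interval of -0.025 to 0.11 and was not called.

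The difference between the 2 genes was tested through their ratio within each library, which does not depend on library size. Gad1 counts were 2.08 to 2.26 times the Gad2 counts in control and 1.91 to 2.07 times in mimic, without overlap. The log2 ratio was 0.098 lower in mimic (exact permutation test, two-sided, p = 0.00216, the smallest that 6 against 6 allow, adjusted p = 0.00866 over 4 ratios). Without control replicates 1 and 2, which had the highest ratios at 2.26 each, it was 0.066 lower (exact permutation, adjusted p = 0.019). The interneuron markers did not move in 1 direction, with 2 of 16 higher, 4 lower and 10 not called, and their part in these values was not tested. Their sum was 0.065 lower (exact permutation, adjusted p = 0.0698) without those libraries.

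Of the 3 transporters, 2 rose. Slc6a11 encodes GAT3, the main GABA transporter of astrocytes. By qPCR in the hippocampus of old mice, the study reported its expression reinstated by a mix of inhibitors that targeted miR-148a-3p among others. The study also used its 3′ UTR in a luciferase assay with microRNA mimics. Tissue and treatment differ from these cultures, where the gene was higher, not lower, with the mimic. Slc6a11 was at 250, 261 and 298 CPM in control and 326, 334 and 356 in mimic. The lowest mimic library was above the highest control library, replicate 1, and the remaining control libraries were at 250 to 265. The increase on the log2 scale was 0.35 (SE 0.0427), or 1.28-fold, with an adjusted p of 1e-05 by edgeR's quasi-likelihood test. It was 0.38 without control replicates 1 and 2.

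Slc6a13 encodes GAT2, a GABA and taurine transporter best known from liver, kidney and the meninges. In control its counts per library were 11, 8, 24, 9, 13 and 12, and in mimic they were 39, 40, 16, 50, 19 and 24. Mimic replicates 3 and 5, at 0.476 and 0.641 CPM, lay within the control range of 0.278 to 0.647, and the other 4 mimic libraries were at 0.844 to 1.56. On the log2 scale the increase was 1.19 (SE 0.293; edgeR quasi-likelihood, adjusted p = 0.00643), or 2.29-fold with a 95% interval of 0.57 to 1.81 on the log2 scale. The count ratio of Slc6a11 to Slc6a13 was 644 ± 178 in control and 394 ± 183 in mimic (SD, n = 6 each; exact permutation, p = 0.0368, adjusted p = 0.0736). Without mimic replicate 3 the adjusted p was 0.0216 by the same exact permutation test. Of the 9 meningeal and mural markers tested 7 were not called, with log2 fold changes from -0.49 (Col1a1) to 0.42 (Dcn), and Acta2 and Tagln fell; the part of such cells in the Slc6a13 value was not tested.

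Slc32a1 encodes the vesicular transporter that loads GABA and glycine at terminals. It was at 19.0, 21.3 and 31.0 CPM in control and 18.7, 20.7 and 23.7 in mimic. Control replicate 1 alone was above 23.7, and the log2 fold change was -0.11 (95% interval -0.31 to 0.096) with it and 0.005 without control replicates 1 and 2. The groups overlapped, and the gene was not called. Of its 2797 exon bases, 697 overlap the antisense gene Gm14205, which was listed at 0 counts.

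Of the enzymes that degrade GABA, Abat, the transaminase that takes the first step in neurons and astrocytes, rose. It was at 230, 237 and 250 CPM in control and 259, 264 and 282 in mimic, without overlap. On the log2 scale it rose by 0.17 (SE 0.0326), or 1.12-fold (edgeR quasi-likelihood, adjusted p = 0.00101). Aldh5a1, which oxidises succinate semialdehyde in the next step, was at 81.8, 91.3 and 99.0 CPM in control and 91.7 (lowest) and 96.5 (median) in mimic. Its log2 fold change of 0.084 (95% interval -0.015 to 0.18) was not called and was 0.024 without control replicates 1 and 2, and 796 bases of its exons overlap an antisense transcript with a mean of 25.5 counts. Slc6a11 and Abat are expressed by astrocytes, whose marker sum was 0.18 higher in mimic on the log2 scale. That sum rose by less than its member Slc1a3 alone (913 to 1820 CPM), and its member Gfap fell (1360 to 731 CPM). The part of cell numbers in the increase of Slc6a11 and Abat was not tested.

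**Figure D4:**
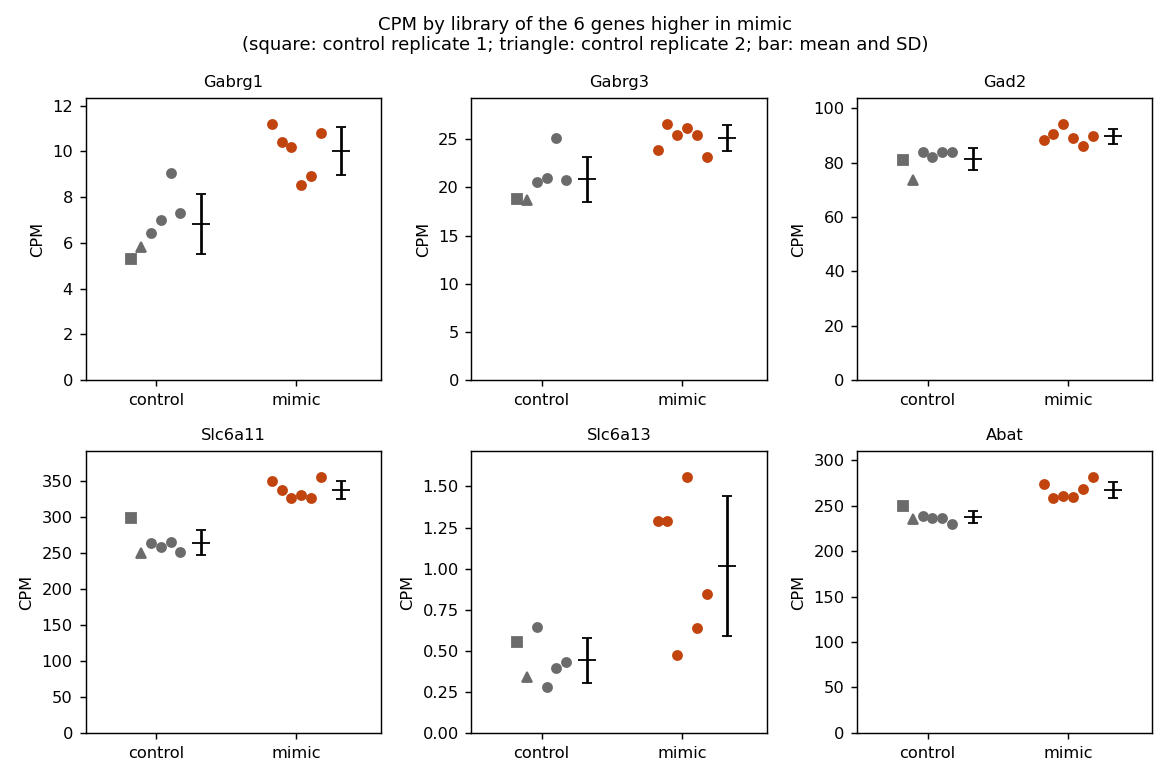
CPM in each of 6 control and 6 mimic libraries for the 6 genes that rose, with the mean and SD per group; squares and triangles are control replicates 1 and 2. Groups are fully apart for Gad2, Slc6a11 and Abat, whereas control replicate 5 reaches the mimic range for Gabrg1 and Gabrg3, and 2 mimic libraries of Slc6a13 lie within the control range.

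Chloride handling rests on Slc12a2 (NKCC1), which imports chloride, and Slc12a5 (KCC2), which neurons raise as they mature to export it. Slc12a5 was at 298, 315 and 383 CPM in control and 294, 296 and 306 in mimic. Control replicates 1 and 2, at 383 and 349, were the highest of the 12 libraries, while replicates 4, 5 and 6, at 298 to 308, overlapped the mimic libraries. The log2 fold change was -0.13 (SE 0.0521; edgeR quasi-likelihood, adjusted p = 0.0759), and -0.048 (adjusted p = 0.183) without these libraries. Slc12a2 ran the other way among the controls, with replicates 1 and 2 lowest at 45.9 and 51.1 CPM and the others at 58.5 to 65.0. In mimic it was at 49.7, 53.9 and 55.8 CPM, and the log2 fold change was -0.11 (edgeR adjusted p = 0.304) with all libraries, -0.16 (adjusted p = 0.0171) without control replicate 1 and -0.21 (adjusted p = 6.36e-05) without both.

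The ratio of exporter to importer counts therefore spread widely in control, from 4.68 to 8.36, with replicates 1 and 2 at 8.36 and 6.83. In mimic it was 5.27 to 5.95. The means were 5.85 ± 1.46 and 5.58 ± 0.229 (SD, n = 6 each), a log2 difference of -0.035 (exact permutation test, two-sided, p = 0.814). Its sign turned without control replicate 1 (0.075) and without replicate 2 (0.016), and without both the ratio was higher in mimic by 0.17 on the log2 scale (exact permutation, adjusted p = 0.0286 over 4 ratios), so no direction held across these libraries.

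**Figure D5:**
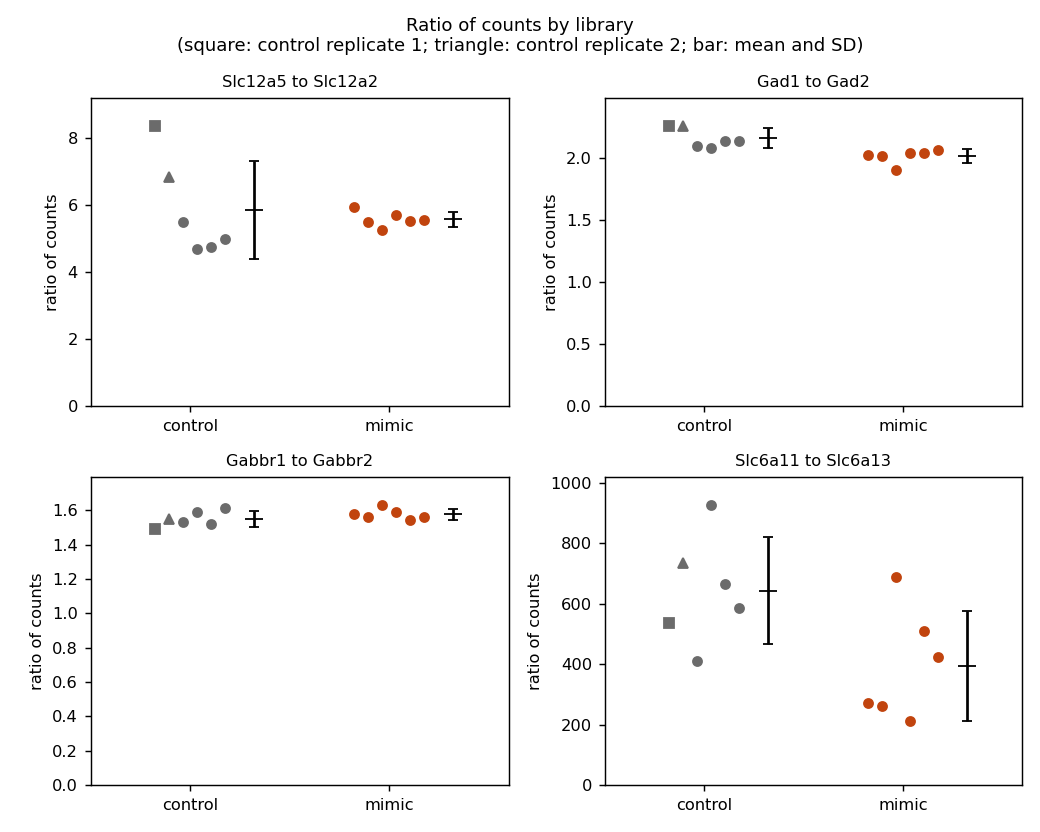
Ratio of counts of 2 genes within each library for the 4 pairs, with 1 point per library and the mean and SD per group; squares and triangles are control replicates 1 and 2. The Gad1 to Gad2 ratio is 1.91 to 2.07 in mimic and 2.08 to 2.26 in control, without overlap, and the square and triangle set the upper end of the Slc12a5 to Slc12a2 ratio in control.

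Around the 27 genes, 67 further genes of the same pathways were listed and 66 tested. By edgeR's quasi-likelihood test 10 of them were higher (15.2%) and 7 lower (10.6%), with a median log2 fold change of 0.018, beside 11.5% and 10.7% of all tested genes. The counts of the smaller groups below rest on 7 to 14 genes each. Of 9 tested genes that supply glutamate and glutamine, 3 rose and 1 fell: Glul, the glutamine synthetase of astrocytes, went from 315 ± 23.1 to 528 ± 17.3 CPM (log2 fold change 0.74, SE 0.0446, adjusted p = 3.2e-09), and Gls2, a glutaminase, from 4.52 ± 0.375 to 3.52 ± 0.563 (-0.35, SE 0.101, adjusted p = 0.0169). Of 7 genes of glycine supply, 3 rose and none fell, also at an unadjusted p under 0.05 and by DESeq2.

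Of 12 regulators of chloride and bicarbonate, 3 rose and 2 fell. Car2, a carbonic anhydrase, went from 20.5 ± 2.47 to 31.8 ± 2.5 CPM (log2 fold change 0.64, edgeR adjusted p = 3.63e-06), and Slc12a7, the potassium-chloride cotransporter KCC4, from 19.3 ± 1.16 to 10.6 ± 1.39 (-0.87, edgeR adjusted p = 2.21e-07). Of 14 scaffold genes 3 were lower, of 11 GABA-B partners 1 was lower, and of 13 trafficking genes 1 was higher.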

How the data were processed

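The deposited values used here were raw counts, whole numbers of reads per Ensembl gene; according to the submitters' processing notes (FastQC 0.11.5, STAR 2.5.2b, featureCounts of Subread 1.5.1, build mm10) the authors aligned and counted the reads. The library kit does not mark strand, and the strand setting of the counting is not given in the sources used here, so reads from genes that overlap on opposite strands cannot be told apart. A normalized table of the whole series was not used. Groups came from sample titles. Genes that reached 5 counts in 6 or more of the 12 libraries were tested with edgeR 4.0.16 (R 4.3.3; TMM factors, quasi-likelihood test, group as the only term, Benjamini-Hochberg adjustment, threshold 0.05); 95% intervals use its standard error and the t quantile of its degrees of freedom. CPM used TMM library sizes. Ratios and marker sums were compared by exact permutation over 924 relabellings. The ratios used counts as they were, and 0.5 added to each count was an alternative. Gene models, 3′ UTRs and exon lengths came from GENCODE M21 (mm10), and gene names were found for 48349 of the 48709 identifiers. The edgeR step was tested on simulated data.

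The 27 genes, the pathway and marker lists and the choice of tests were made with earlier results of these data known. All 27 were named; of the further pathway genes, the 2 higher and 2 lower with the largest change among those called whose mean was 100 counts or more; of the marker lists, the counts and any marker near 0. Alternatives were DESeq2 1.42.0, its size factors, other count filters, the replicate number as a block and leaving out each library; leaving out control replicates 1 and 2 together was added after seeing the data.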

Additional observations from a re-analysis of the deposited data

Results flagged for a closer look

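A library was marked where its gap to the nearest library of its group was too large a part of the group's range by Dixon's test at the 95% level. Of 78 groups examined 10 were marked, where chance gives about 1 in 20 groups, or 3.9; 6 of the 10 concern control replicate 1 and 2 control replicate 2.

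Control replicate 1 was far above the other control libraries for Gabbr1 (638 CPM, others 573 to 594), Nlgn2 (384, others 296 to 325), Slc32a1 (31.0, others 19.0 to 22.4) and Slc6a11 (298, others 250 to 265). It also had the highest control sum of interneuron markers (845 CPM, others 707 to 757) and of oligodendrocyte lineage markers (680, others 392 to 421).

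Control replicate 2 was far below the others for Gad2 (73.6 CPM, others 80.9 to 83.9) and for the astrocyte marker sum (4880, others 5190 to 5370). Control replicate 5 was far above the others for Gabrg3 (25.1 CPM, others 18.7 to 21.0). Mimic replicate 3 had the lowest mimic ratio of Gad1 to Gad2 (1.91, others 2.02 to 2.07).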

How the results depend on the processing

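The 6 genes called higher were called in all 18 alternatives, and counts over all genes stayed within 1.5 times of 2163 higher and 2019 lower (1880 to 3058 and 1612 to 2892). Genes of the list called lower numbered 0 with all libraries, 1 with at least 10 counts in every library of a group, 0 to 4 when single libraries were left out, and 6 without control replicates 1 and 2. The log2 fold change changed sign on leaving out single libraries for Gabra2 (-0.088 to 0.007), Gabra4 (-0.005 to 0.082), Gabra5 (-0.011 to 0.022), Glrb (-0.054 to 0.044) and Gphn (-0.009 to 0.007), and without control replicates 1 and 2 it was -0.071 for Gabra4, -0.026 for Gabra5, -0.111 for Glrb, 0.012 for Nlgn2 and 0.005 for Slc32a1. Gphn was at 0.002 under DESeq2, its size factors and no filter, and Glrb at -0.003 under the stricter filter.

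The log2 ratio of Slc12a5 to Slc12a2 ranged from -0.093 to 0.075 without single libraries and was 0.166 without control replicates 1 and 2, and that of Slc6a11 to Slc6a13 from -0.975 to -0.633. Among marker sums, neurons ranged from -0.098 to -0.064 without single libraries and were at -0.126 without control replicates 1 and 2, interneurons were then at -0.065, and glutamatergic neurons ranged from 0.016 to 0.042 and were at -0.159 as a mean of log2 values (exact permutation, adjusted p = 0.00433), while their sum was called without control replicate 1 (0.042, adjusted p = 0.0495). Same-numbered libraries did not deviate together (r = -0.221 to 0.321, none highest with its own number). These values show no pairing by number, but whether same-numbered libraries shared a culture is not given. With a replicate block 1950 genes were higher and 1709 lower, and the genes of the list kept 6 higher and 0 lower calls. In that setting 6 pairs allow no exact p under 0.0312. Values that lost their call at that smallest p were the log2 ratio of Gad1 to Gad2 (-0.098) and the marker sums of interneurons (-0.114), astrocytes (0.185), the oligodendrocyte lineage (0.917) and endothelial cells (-0.658). The marker sum of meningeal and mural cells also lost its call (-0.717, exact p = 0.0625). The cause of these shifts was not tested. Depth limits Glra3 (mean 14.4 counts) and Slc6a13 (22.1).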
